A study of Zea mays with 112 samples.

Results

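Within the AP2/ERF transcription factors (TFs) of maize, 7 ampDAP-seq peak lists of 112 in all are described here: DBF1, EREB79, EREB65, EREB118, EREB102, EREB2 and EREB150. They were chosen on a measured value. Of the 17 lists titled EREB and a number, 6 shared under 10% of their strongest 5000 peaks with EREB147, and the list titled DBF1 was added by name. Sharing is the percentage of the 5000 peaks of highest signal that had a summit of the other list within 100 bp, averaged over both directions. The shares with EREB147 were 6.51% for EREB2, 6.38% for EREB150, 1.68% for EREB102, 0.14% for EREB79, and 0.02% for each of EREB118 and EREB65. Just outside that limit lay EREB18, at 14.1%, and DBF1 itself stood at 10.9%. These values made the choice and carry no test. The other 11 EREB lists, EREB147 included, are called EREB147-like, and the 94 lists of neither EREB nor DBF1 are called lists of other stems, a stem being the letters at the start of a TF name.

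Each TF was made with a HaloTag in wheat germ extract and bound to PCR-amplified genomic DNA from 14 DAG leaves of the inbred line B73, so the sites are those of DNA without chromatin or methylation. Peaks had been called against a library of the empty HaloTag vector, which was not analysed here. There was 1 list per TF and no replicate library is named in the labels, read depth is unknown, and every p-value below measures the spread between lists of different TFs. A share of 5000 peaks has a 95% Wilson interval that reaches at most 1.39 percentage points to either side, which covers counting error only.

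AP2/ERF proteins carry a plant DNA-binding domain that contacts short GC-rich elements. The best known are the GCC box of ethylene-responsive genes, which ERF proteins bind, and the dehydration-responsive element (DRE, or C-repeat), which DREB proteins bind. DBF1 was named in maize as a factor that binds the DRE. A role of the 6 EREB members in maize is not described here, and the names of only 2 of the 7 genes (DBF1 and EREB65) were found in the RefSeq gene table for maize.

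The study lists a motif for each TF from its own search of the peaks. The strings of 5 members are printed with those of EREB147 and EREB18, because they differ in which element they hold. Capitals mark the core of the GCC box (GCCGCC) or of the DRE (CCGAC, or GTCGG on the opposite strand).
EREB147: ccccGCCGCCg
EREB2: GCCGCCGCCctt
DBF1: acgCCGACcttc
EREB18: cgCCGACcttc
EREB79: aaGTCGGcaacg
EREB65: gcaccgccttaa
EREB118: aatttcggcag
The GCC box core stood in the strings of EREB147 and EREB2, and the DRE core in those of DBF1, EREB18, EREB79 and EREB102. Neither core stood in the strings of EREB65 and EREB118. The strings of EREB102 and EREB150 hold ambiguous letters and are not printed. How many peaks hold a core was not analysed here.

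The lists differed in length. DBF1 had 135065 peaks, EREB2 90447, EREB150 67074, EREB79 47219, EREB102 38530, EREB118 32253 and EREB65 10324. The EREB147-like lists ran from 13365 peaks (EREB18) through a median of 134141 (EREB196) to 225407 (EREB209). Mean log10 peak number was 4.67 ± 0.36 for the members (SD, n = 7) and 4.94 ± 0.46 for the EREB147-like lists (SD, n = 11). The difference of −0.27 did not exceed the spread between lists (two-sided exact permutation test, p = 0.198, the same after adjustment over 3 tests). Signal also differed in scale. The strongest peak of DBF1 (chr5:42167581-42167781) had a signal of 7895.1, against 258.4 at its rank 5000, while that of EREB118 (chr8:9787684-9787884) had 186.8, against 52 at rank 5000. No scaling between libraries is stated, so signal served only to rank peaks within a list. Peaks with a deposited −log10 q of 10 or more numbered 59099 in DBF1, 30500 in EREB2, 22460 in EREB79 and 5636 in EREB150. They numbered 3873 in EREB102, 3610 in EREB118 and 2481 in EREB65, whose top 5000 thus hold peaks below that limit.

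The question of which members bind together was answered by sharing among their 21 pairs, as a description without a test. EREB79 and EREB65 shared most, at 52.9%. In the next 5000 peaks by rank the same pair shared 7.79%, below EREB102 and EREB2 at 12.8%. EREB102 and EREB2 shared 37.01%, EREB118 and EREB102 34.4%, EREB118 and EREB2 30.9%, and DBF1 and EREB79 21.7%. EREB150 was a looser partner of EREB2 (17.1%), EREB102 (14.8%) and EREB118 (14.0%). The last of 9 pairs at or above 10% was EREB65 and EREB118, at 10.7%. The median over the 21 member pairs was 5.99%, against 28.7% for pairs of EREB147-like lists, whose lowest pair shared 9.29%. Since the members were picked for low sharing with 1 of those lists, that difference is no finding.

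**Figure D1:**
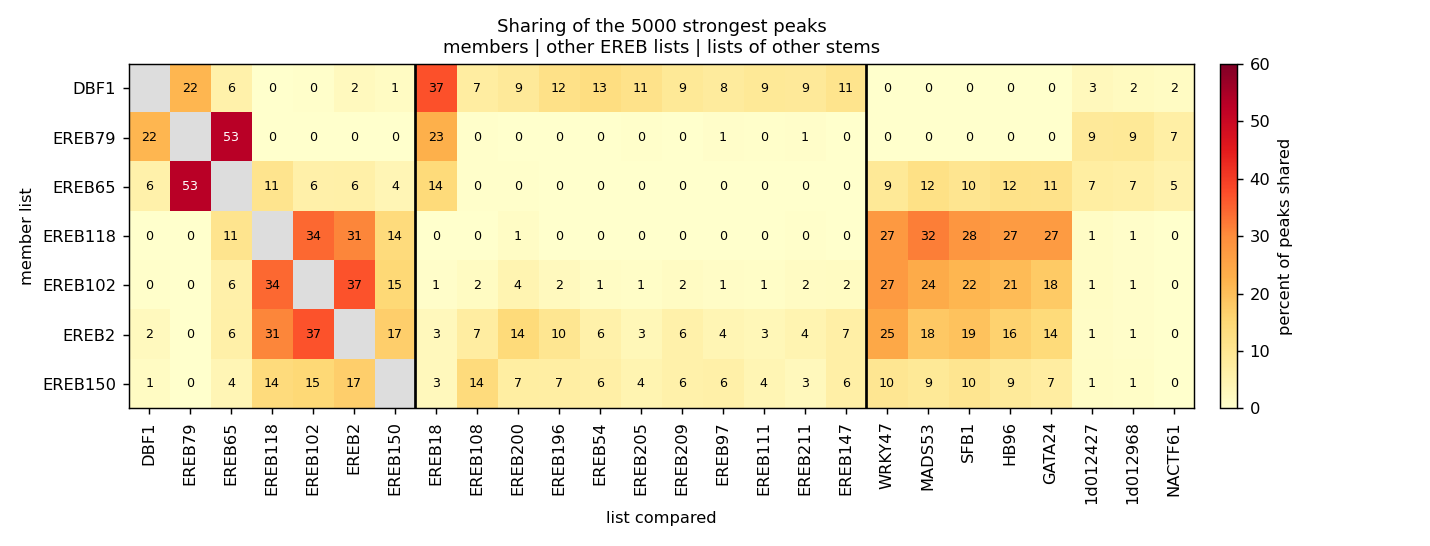
Percentage of the 5000 strongest peaks shared (cell colour and number) between each member (rows) and, from left to right, the other members, the 11 other EREB lists and 8 lists of other stems. Blocks of high values stand out on the left, DBF1 with EREB79 and EREB65 (21.7% and 52.9% with EREB79) and EREB118 with EREB102 and EREB2 (30.9% to 37.01%), with EREB150 at 14.0% to 17.1%.

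Linked at 10% or more, all 7 members form a single chain and none stands alone. The chain has a weak joint. DBF1, EREB79 and EREB65 formed a subset of 3, and EREB118, EREB102, EREB2 and EREB150 a subset of 4, both named after their sharing was seen. Between the subsets the median sharing was 0.92%, and without EREB65 it did not pass 2.37%. EREB79 and EREB2 shared 0 of their 5000 peaks, which allows a share of up to 0.06%. DBF1 and EREB65, both in the subset of 3, shared only 5.68%, so EREB79 linked them.

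The joint between the subsets lay at sites that also drew TFs of other stems. With top peaks at such sites left out of both lists, a setting chosen after seeing the data, EREB65 and EREB118 shared 0.33%. In the same setting EREB79 and EREB65 shared 56.8%, DBF1 and EREB79 20.8%, EREB102 and EREB2 22.2%, EREB118 and EREB2 12.1%, and EREB118 and EREB102 11.6%. Those 5 pairs were all that stayed at or above 10%. EREB150 then shared at most 6.81% with another member (EREB2). That setting left 2298 peaks of EREB2, 1655 of EREB102, 1009 of EREB118 and 3677 of EREB150. It shared 4.51% with EREB102 and 2.27% with EREB118 there, so none of its links at or above 10% remained. As the setting was chosen after seeing the data and dropped many peaks, it does not show that EREB150 stands alone.

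The EREB147-like list closest to the subset of 3 was EREB18, which itself lay just outside the limit. EREB18 shared 37.2% with DBF1, more than any member did, 22.8% with EREB79 and 14.2% with EREB65. Most deposited lists carry an identifier in their names, called the run identifier here, though what it marks is not stated. Those of DBF1 and EREB18 differ in the first 2 digits (20 and 21). DBF1 next shared 13.1% with EREB54, and no EREB147-like list apart from EREB18 passed 0.56% with EREB79 or 0.32% with EREB65. In the subset of 4, EREB2 was closest to EREB200 (14.2%) and EREB196 (10.1%), EREB102 to EREB200 (4.5%), and EREB118 to EREB200 (1.32%). EREB150 shared 13.95% with EREB108, whose gene identifier (Zm00001d031499) nearly adjoins its own (Zm00001d031501).

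The overlap depended on how strong a peak was. DBF1 was set against whole lists by rank of its peaks. Of its strongest 500 peaks, 93.8% had a summit in the whole list of EREB79, 87.2% in that of EREB18, 78.8% in that of EREB108, and 6.0% in that of EREB147. Between ranks 2000 and 5000 the shares were 38.7% for EREB79, 45.2% for EREB18 and 45.1% for EREB147. The strongest DBF1 sites lay mostly at EREB79 and EREB18 sites and seldom at EREB147 sites, and the weaker ones lay about as often at EREB147 sites. Over its whole top 5000, 34.3% lay at summits of EREB147 and 54.1% at summits of EREB79. Across the lists of other stems, the median share of the top 5000 peaks found in the whole EREB147 list was 0.57%, and in the whole EREB79 list 0.29%.

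EREB65 changed its company along its list. Its strongest 500 peaks lay at summits of DBF1 in 92.6%, of EREB79 in 79.2% and of EREB18 in 66.2% of cases. None of these 500 lay at a summit of MADS53, a MADS-box TF, which allows a share of up to 0.6%. In the next 5000 peaks after the top 5000 the share was 16.8% for DBF1, 21.02% for EREB79 and 35.3% for MADS53. The list holds only 10324 peaks, so those ranks reach almost to its weakest peak. In EREB79, 0.1% of the next 5000 peaks lay at summits of MADS53 and 67.9% at summits of DBF1, but its list holds 47219 peaks and its weaker peaks were not examined in this way.

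EREB118 met the same partners in its strongest and its weaker peaks as far as rank 10000 of 32253, at lower shares in the weaker ones. In its strongest 500 peaks and in the next 5000 after the top 5000, 82% and 62.1% lay at summits of EREB2, 63.6% and 42.8% at summits of EREB102, and 63.8% and 53.7% at summits of MADS53. The whole EREB147 list held 8.6% and 2.5% of them. EREB2 differed, since 34% of its strongest 500 peaks lay at summits of EREB147 and 61% at summits of EREB200. EREB150 had 62.6% of its strongest 500 peaks at summits of EREB108 and 37% at summits of EREB147, and EREB102 15% at summits of EREB147. Over the whole top 5000, 28.1% of EREB150 peaks, 22.7% of EREB2 peaks and 11.7% of EREB102 peaks lay at summits of EREB147, against the median of 0.57% for other stems.

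**Figure D2:**
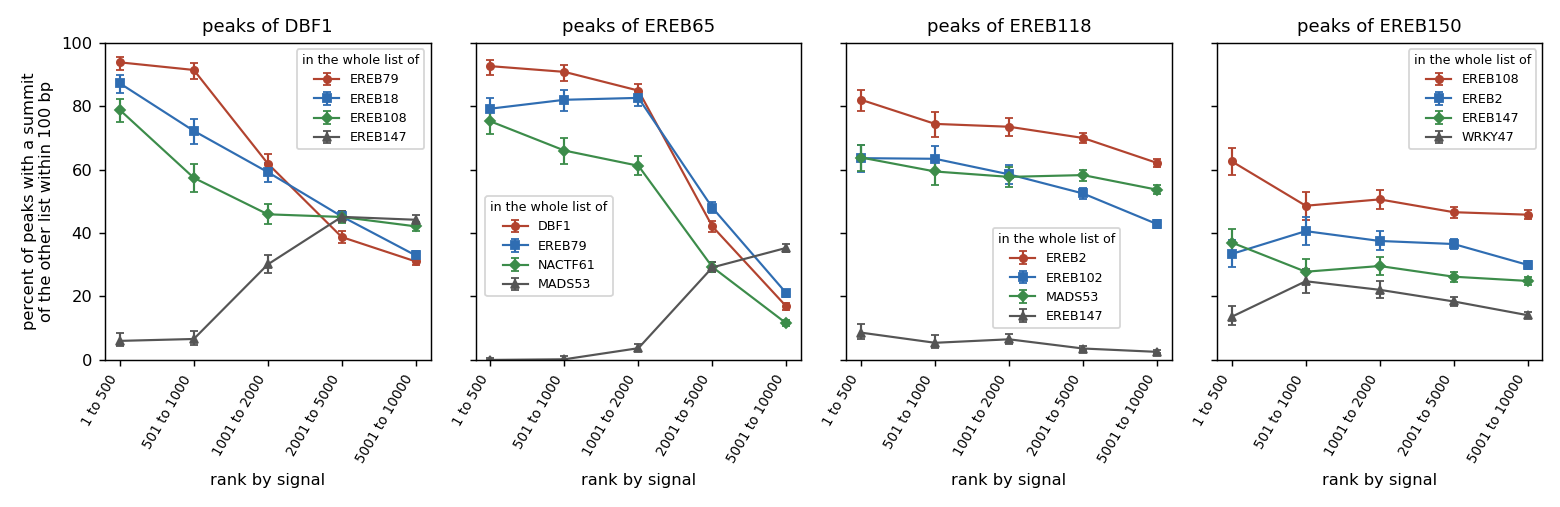
Percentage of the peaks of DBF1, EREB65, EREB118 and EREB150 (panels), in 5 classes of rank by signal (x axis), that had a summit of the named whole list within 100 bp, with 95% Wilson intervals for counting error only. EREB65 turns from DBF1 (92.6% of the strongest 500) to MADS53 (35.3% in the last class), while EREB118 keeps 53.7% to 63.8% with MADS53.

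Among lists of other stems, the subset of 4 had close partners. EREB118 shared 31.8% with MADS53 and 28.0% with SFB1. EREB102 shared 27.4% with WRKY47, a WRKY TF, and 23.8% with MADS53. EREB2 shared 24.6% with WRKY47 and 19.3% with SFB1, and EREB150 10.4% with SFB1 and 9.86% with WRKY47. Lists of other stems at or above 10% numbered 14 of 94 for EREB118, 12 for EREB102, 10 for EREB2 and 1 for EREB150, while the median over the 94 lists was 0.28% or less for each. Among these partners, peaks with −log10 q of 10 or more numbered 10404 in MADS53, 5949 in WRKY47 and 1170 in SFB1. Sharing among such peaks alone was not computed.

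EREB65 had 4 lists of other stems at or above 10%, led by MADS53 (12.01%) and HB96 (11.6%), a homeobox TF. DBF1 and EREB79 had none. DBF1 was closest to the list named 1d012427, at 2.58%, and then 1d012968, at 1.88%. EREB79 was closest to the same pair, 1d012968 at 9.11% and 1d012427 at 8.88%. The highest share of an EREB147-like list with any list of another stem was 3.17%.

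The share of top peaks with no top peak of any other stem within 100 bp separated the members further. It was 89.7% for DBF1, 77.2% for EREB79, 73.5% for EREB150, 58.2% for EREB65, 45.96% for EREB2, 33.1% for EREB102 and 20.2% for EREB118. In EREB147-like lists it lay between 89.1% (EREB97) and 97.1% (EREB108). Counting all peaks of all other lists, EREB150 had the most top peaks of its own, with 12.3% at no summit of any other list. DBF1 followed with 2.88%, and the other 5 members had 0.5% or less.

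A technical label moved with this grouping. EREB118, EREB102, EREB2 and EREB150 carry the same first 5 digits of the run identifier (20255), DBF1 and EREB79 share 20261, and EREB65 has 20263. EREB54 and EREB196 also carry 20255 and shared between 0.02% and 10.1% with the subset of 4. The 5 lists of other stems with 20255 had a median sharing of 0.06% to 0.4% with each of the 4, and the highest among them, MYBR19, shared 17.2% with EREB118, 10.2% with EREB102, 9.76% with EREB2 and 5.76% with EREB150. MADS53 (20262), SFB1 (20260) and WRKY47 (20261), the closest lists of other stems, carry other digits. The lists 1d012427 and 1d012968 carry the digits of DBF1 and EREB79. What the digits mark is not stated, and their part in the sharing was not tested.

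Loci bound by many TFs were then counted at peaks that the choice of members did not use. These peaks are still not independent of the choice. The same rule applied to them gave 10 lists, DBF1 included, with every member among them. Summits of all peaks of the 94 lists of other stems were chained within 100 bp, and a locus of 10 or more of those lists is called common. Of the 5000 peaks that rank next after the top 5000, 64.5% lay at common loci for EREB118, 57.2% for EREB65, 42.5% for EREB102, 35.8% for EREB2, 18.8% for EREB150, 9.54% for EREB79 and 3.2% for DBF1. The EREB147-like lists ran from 0.7% (EREB209) through a median of 1.38% (EREB147) to 13.2% (EREB200). Of the members, 5 lay above all EREB147-like lists, and EREB79 and DBF1 fell inside their range.

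The members averaged 33.1% ± 23.5 (SD, n = 7) and the EREB147-like lists 2.66% ± 3.56 (SD, n = 11). The difference of 30.4 percentage points exceeded the spread between lists (two-sided exact permutation test over 31824 relabellings, p = 0.000408, adjusted p = 0.00123 over 3 tests). Without the 4 members of run digits 20255 it was 20.7 points, with an adjusted p of 0.0536 from the same exact test. EREB54 and EREB196, which carry the same digits, stayed among the EREB147-like lists there. Lists that share sites are not independent, and the tests treat them as if they were.

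The summits of shared sites did not coincide in every pair. Of 2635 EREB79 peaks with an EREB65 summit within 100 bp, 1002 (38.03%) lay at exactly 29 bp from it and 689 (26.1%) at exactly 60 bp. Only 0.46% lay within 5 bp. With a limit of 20 bp, sharing of this pair was 3.1% in place of 52.9%, and that of EREB102 and EREB2 12.5% in place of 37.01%. DBF1 and EREB79 instead met at 3 bp in 305 of 1124 paired peaks (27.1%), and DBF1 and EREB18 at 0 bp in 412 of 1902 (21.7%).

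EREB65 stood off from EREB18 as it did from EREB79. Of 749 paired peaks, 298 lay at 41 bp and 294 at 48 bp, and 0% lay within 5 bp. Within the subset of 4, EREB2 and EREB102 met most often at 1 bp (150 of 1865 paired peaks, 8.04%), with the rest spread over all distances. EREB118 and EREB102 met most often at 62 bp (138 of 1722) and 75 bp (109). EREB118 lay 6 bp from MADS53 in 244 of 1585 paired peaks (15.4%). For comparison, EREB147 and EREB54 had 43.6% of 2830 paired summits within 5 bp.

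**Figure D3:**
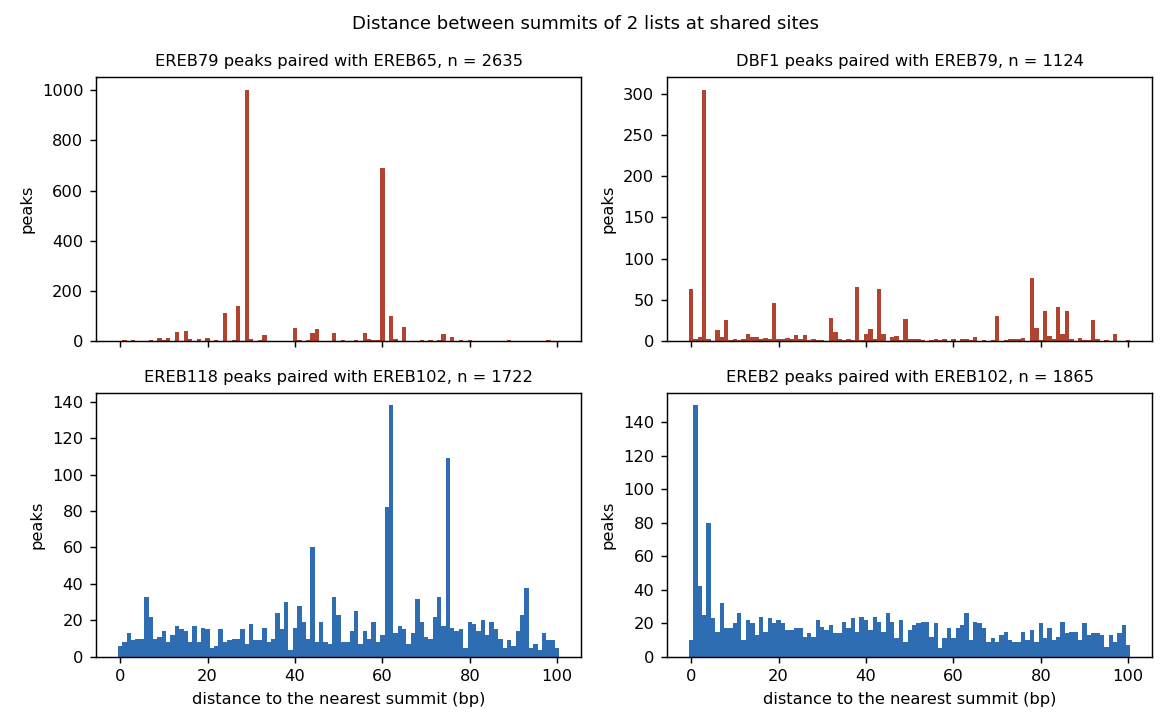
Number of top peaks (y axis) of the list named first by their distance in bp to the nearest summit of the list named next (x axis), for 4 pairs of members. EREB79 and EREB65 stand at 29 bp (1002 peaks) and 60 bp (689 peaks), DBF1 and EREB79 at 3 bp (305 peaks), and EREB2 and EREB102 at 1 bp (150 peaks).

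Sites of the subset of 3 also recurred at fixed distances inside a list. The periods named here were picked after the distances were seen. In EREB79, 88 pairs of top summits lay exactly 89 bp apart, 241 lay 178 bp apart and 369 lay 267 bp apart, the first 3 multiples of 89 bp. The median over the 40 nearest distances was 2 pairs or fewer at each. In EREB65 the same distances held 263, 266 and 168 pairs, against a median of 0. The offsets of 29 and 60 bp between these 2 lists add up to that period.

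DBF1 had another period. Its summits lay 81 bp apart in 75 pairs, 162 bp in 94 and 243 bp in 59, against medians of 2 pairs or fewer at the nearest distances. EREB18 showed 81 bp as its most frequent gap between neighbours (97 gaps), then 162 bp (81 gaps). A top peak had a partner at 1 of the first 5 multiples of 89 bp in 31.3% of EREB79 peaks and 29.4% of EREB65 peaks. The same share was 2.58% for DBF1, 3.84% for EREB18 and at most 0.24% in the subset of 4. It was 0.12% in the median list of other stems, whose highest was NACTF61 at 6.3%. For 81 bp the share was 9.48% for DBF1, 4.48% for EREB79, 8.16% for EREB18 and 0% for EREB65. Both periods were read from these lists, so low shares in other lists are no finding. Lists of other stems had frequent gaps of their own, such as 80 bp in WRKY123 (169 gaps) and 114 bp in NKD2 (95 gaps). The most frequent gap was 162 bp in DBF1 (85 gaps), 267 bp in EREB79 (362) and 89 bp in EREB65 (263).

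Gaps of up to 300 bp between neighbouring top summits numbered 1276 in EREB79, 931 in DBF1 and 897 in EREB65. They numbered 240 in EREB2, 115 in EREB118, 98 in EREB102 and 57 in EREB150. Lists of other stems had a median of 316, and among them MYBR98 had 1357 and THX47 1033. The longest run of such gaps held 6 DBF1 summits (chr8:132549883-132551130, 1248 bp), where the whole EREB79 list had 5 summits, that of EREB18 2, and that of EREB147 0. Repeat annotation was not used here, and whether these sites lie in repeats was not tested. With all top peaks that have a neighbour in their own list within 300 bp left out, a setting chosen after seeing the data, EREB79 and EREB65 shared 30.7%, and DBF1 and EREB79 9.56%.

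**Figure D4:**
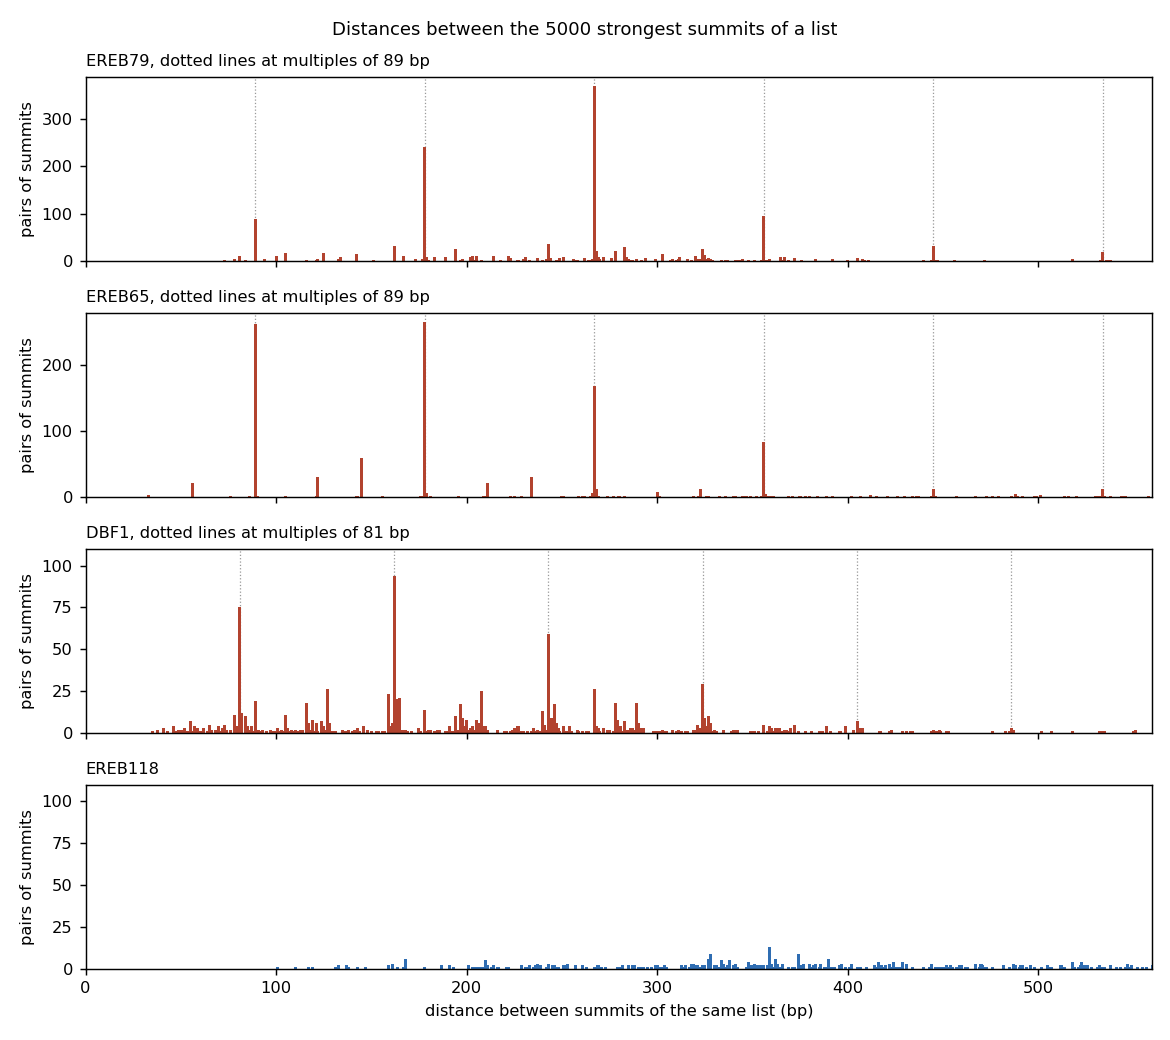
Number of pairs of top summits (y axis) at each distance in bp (x axis) inside the lists of EREB79, EREB65, DBF1 and EREB118, with dotted lines at multiples of 89 or 81 bp. EREB79 peaks at 267 bp (369 pairs), EREB65 at 178 bp (266 pairs) and DBF1 at 162 bp (94 pairs), while EREB118 shows no such comb.

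Many sites of EREB79 and EREB65 were also in the whole lists of NACTF61 and 1d012427. Among top peaks alone, EREB79 shared 6.59% with NACTF61 and 8.88% with 1d012427, and EREB65 shared 5.21% and 7.24%. The gap of 89 bp was the most frequent between neighbouring top summits of NACTF61 itself (87 gaps). Of the strongest 500 EREB65 peaks, 75.2% lay at a summit of the whole NACTF61 list and 62.6% at one of 1d012427. For EREB79 the shares were 67.8% and 66.2%, and for DBF1 0% and 0.2%. Over the whole top 5000, NACTF61 held 43.9% of EREB65 peaks and 48.7% of EREB79 peaks, and 1d012427 held 47.8% and 54.6%. Over the other 93 lists of other stems, the median share of the top 5000 peaks was 0.9% for NACTF61 and 3.4% for 1d012427. NACTF61 is a NAC TF by name and carries the run digits 20260.

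Chained within 100 bp, the 5000 top peaks of the 7 members gave 23979 loci. Of these, 16713 held 1 member, 5322 held 2, 1298 held 3, 479 held 4 and 167 held 5, and none held more. The most frequent combination was EREB79 with EREB65 and no other member (2213 loci). All 3 of DBF1, EREB79 and EREB65 met at 243 loci, and all 4 of EREB118, EREB102, EREB2 and EREB150 at 494. Of 1494 loci with 3 or more of the subset of 4, 313 also held EREB65, 4 held DBF1 and 0 held EREB79.

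Individual loci show the contrast. At chr7:168752963-168753309, EREB65, EREB118, EREB102, EREB2 and EREB150 all had a top peak, with signals of 84, 116.5, 99.1, 258.3 and 126.7, and 50 lists of other stems had a summit there. The same 5 members met at chr6:154421544-154421806, with 44 lists of other stems. At chr1:302663791-302664043, in contrast, DBF1 (930), EREB118 (57), EREB102 (118), EREB2 (182.9) and EREB150 (80.2) met with only 8 lists of other stems but 10 of the 11 EREB147-like lists.

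A locus of the subset of 3 was also described, chosen after its values were seen. At chr4:238552045-238552288, DBF1 had a signal of 681.4, EREB79 of 1804.9 and EREB65 of 501.8, the highest of the EREB65 list. Here 11 lists of other stems and 1 EREB147-like list had a summit. All 4 of the other subset met at chr4:209041990-209042290, with signals of 145.5 (EREB118), 147.6 (EREB102), 464.2 (EREB2) and 138.6 (EREB150). EREB65 also had a top peak there (signal 63), and 41 lists of other stems had a summit. What genes lie beside these loci was not analysed here, as no annotation of B73 v4 was used.

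Site position along chromosomes was compared in the same 5000 peaks after the top 5000. The measure was the share of peaks in the outer 25% of a chromosome at either end. It was 53.4% for EREB150, 52.5% for DBF1, 52.2% for EREB2, 51.5% for EREB102, 51.1% for EREB65, 50.9% for EREB118 and 50.0% for EREB79. The EREB147-like lists ran from 51.5% (EREB205) through a median of 55.5% to 59.9% (EREB209). The ranges overlapped. EREB65, EREB118 and EREB79 lay below all EREB147-like lists, while EREB102 and the lowest of those lists, EREB205, both stood at 51.5%. The lists of other stems had a median of 49.4%, with quartiles of 45.2% and 51.9% over the 88 lists long enough. Every member lay above that median.

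Members averaged 51.7% ± 1.12 (SD, n = 7) and EREB147-like lists 55.1% ± 2.39 (SD, n = 11). Member sites thus lay less often toward the chromosome ends than EREB147-like sites, by 3.42 percentage points. The difference of −3.42 had p = 0.00336 in the two-sided exact permutation test (adjusted p = 0.00504 over 3 tests). Over all peaks the groups did not overlap, with 50.9% to 53.3% for members and 54.9% to 57.02% for EREB147-like lists. That difference was −3.85 points (exact permutation p = 3.14e-05, the smallest these relabellings can give, adjusted p = 9.43e-05). All peaks include the top 5000 that made the choice, which are 3.7% of the DBF1 list and 48.4% of the EREB65 list. The p-value over all peaks is therefore not independent of that choice. Each of the 10 chromosomes had a lower mean in members over all peaks, by 1.09 points on chromosome 4 up to 7.6 on chromosome 2.

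In the top 5000 peaks the difference was smaller, −1.35 points, and did not pass the test (adjusted p = 0.198, exact permutation). There 6 of the 7 members, from 52.3% (EREB79) to 56.3% (EREB2), lay inside the EREB147-like range of 51.9% to 59.3%, and EREB65 (51.7%) lay below it. Without peaks at common loci the difference in the 5000 peaks after the top 5000 was −4.33 points, and among lists whose run identifier begins with 20 −2.67 points (7 members and 5 EREB147-like lists, adjusted p = 0.0227, exact permutation).

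**Figure D5:**
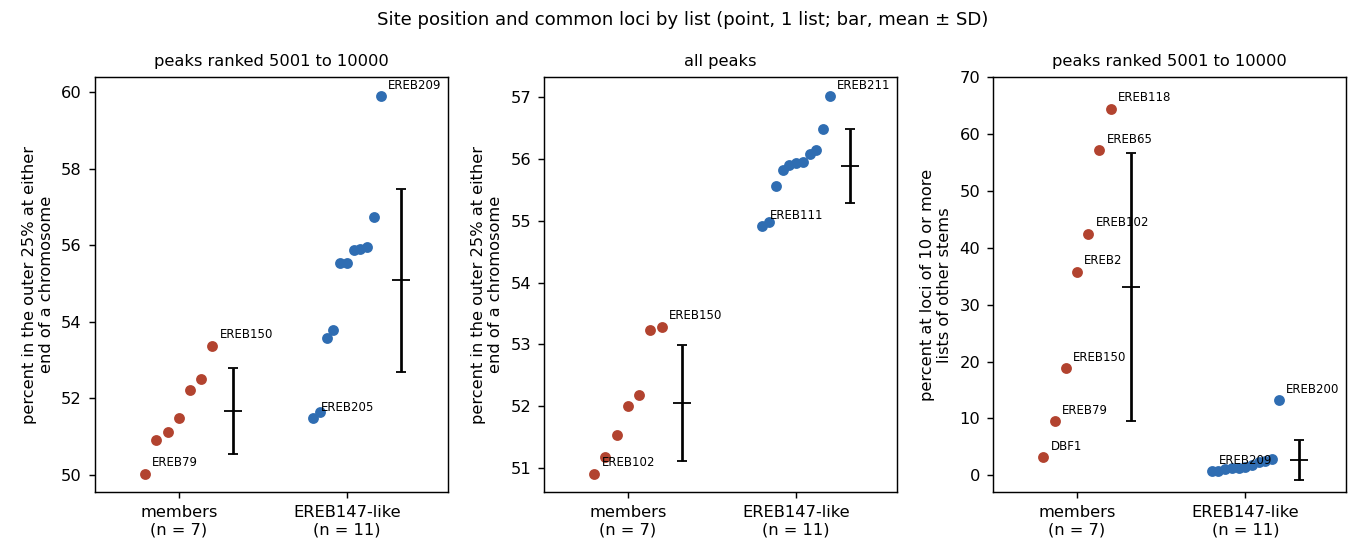
Percentage of peaks in the outer 25% of a chromosome at either end, for the 5000 peaks after the top 5000 (left) and all peaks (middle, axes not from 0), and percentage at common loci (right), with 1 point per list and the mean ± SD beside it. Over all peaks the 7 members (50.9% to 53.3%) lie below the 11 EREB147-like lists (54.9% to 57.02%). All peaks include the top 5000 that made the choice of members.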

How the data were processed

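Processed peak lists of 112 maize TFs were used, 1 per TF. Per the study's methods, the authors trimmed reads with Trimmomatic (version 0.39), aligned them to B73 version 4 with Bowtie2 (version 2.4.1), removed duplicates and called peaks with GEM against an empty-vector library. A deposited peak spans 201 bp with its summit in the middle. The score that the authors deposited for each peak was not used. The deposited signal column ranked peaks within a list, ties broken by position. The deposited −log10 q served for a stricter list (−log10 q of 10 or more), and the deposited −log10 p was not used. No scaling between libraries and no filter on mapping quality is stated.

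Sharing, loci, distances and positions were computed with Python 3.11.15, NumPy 2.4.6, pandas 2.3.3 and SciPy 1.17.1. Only the sharing measure and the most frequent gap inside a list were tested on simulated data. A chromosome's span was the largest peak end in any list. The 3 group tests were exact permutations over lists, two-sided, with Benjamini-Hochberg adjustment. All members, their closest lists, the 5 pairs of highest sharing and the 3 loci of most members were named by rule. The members, lists and tests were chosen with earlier results of these data known. Alternatives changed the distance, ranks, limit and lists compared.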

Additional observations from a re-analysis of the deposited data

How the results depend on the processing

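The number of member pairs sharing 10% or more, 9 as reported, was 2 with summits within 20 bp, 2 in the 5000 peaks after the top 5000, and 5 without top peaks at sites of other stems, and between 6 and 10 under the other 5 alternatives. The median sharing of a member with its closest list of another stem was 12.01%, and 4.26% with summits within 20 bp, 7.8% in the top 1000 peaks and 7.94% in the 5000 peaks after the top 5000. The choice itself gave 5 to 10 members under its 7 alternatives. The outer 25% difference was −1.35 points in the top 5000 peaks, no longer past the threshold, and kept its direction and its call under the other 17 alternatives. Leaving out each EREB member in turn gave −3.71 to −3.15 points. The difference in log10 peak number was −0.42 with a limit of 20%, which moves EREB18 to the members (adjusted p = 0.0366, exact permutation), and −0.32 to −0.16 without each EREB member in turn. The difference in common loci was 25.2 to 34.3 points without each EREB member in turn and 35.4 without DBF1. It was 20.7 without the 4 members of run digits 20255, where the call was lost.

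Settings without sites of other stems, without close neighbours, without common loci and without the members of run digits 20255 were chosen after seeing the data. The planned counts of motif cores in peak intervals and the comparison of AP2 domains were not run, since no genome sequence or protein table was used. No paired analysis was possible because the lists are 1 per TF and carry no replicate numbers that pair them. Read depth is unknown, which limits every comparison of list length and of whole lists.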
